A study of Mus musculus with 4 samples.

Results

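The genes described here are 10 enzymes of threonine, serine and one-carbon metabolism, chosen by name as enzymes of these pathways, with earlier results of these data known: Tdh, Gcat, Gldc, Shmt1, Shmt2, Phgdh, Psat1, Psph, Mthfd2 and Mat2a. Each symbol matched 1 Ensembl identifier among the 47633 genes measured, and all 10 passed the filter on low values (1 FPKM or more in at least 1 library), which kept 15676 genes. RNA sequencing of total RNA was done on 4 libraries of mouse cells of the 129S2/SvPas strain. ES 1 and ES 2 came from embryonic stem (ES) cells cultured with leukaemia inhibitory factor (LIF, the cytokine that holds them undifferentiated) on mitomycin C-treated C57/BL6 embryonic fibroblasts, in serum with added non-essential amino acids and nucleotide. A single library came from cells kept without LIF for 2 days, here the 2-day library, and another from cells kept without LIF for 5 days, here the 5-day library. Its label is embryoid body, a term for aggregates that ES cells form as they differentiate. No genotype change is labelled, and the labels do not say whether derived cells stayed on fibroblasts or whether ES 1 and ES 2 were separate cultures, so the spread behind every p-value is that of this pair alone and may be technical.

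These enzymes feed the one-carbon pool, the set of folate-bound carbon units used for nucleotide synthesis and methylation. Mouse ES cells are known for catabolising threonine: threonine dehydrogenase (Tdh) and glycine C-acetyltransferase (Gcat) split it into glycine and acetyl-CoA in the mitochondrion, and the glycine cleavage system, whose decarboxylase is Gldc, passes a carbon of glycine to folate. Serine is made from a glycolytic intermediate by Phgdh, Psat1 and Psph in turn, and the serine hydroxymethyltransferases Shmt1 (cytosol) and Shmt2 (mitochondrion) interconvert it with glycine. Mthfd2 oxidises mitochondrial folate carriers, and Mat2a makes S-adenosylmethionine (SAM), the methyl donor of most methyltransferases.

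Values were FPKM, which are scaled to gene length, so levels of different genes can be set side by side. Estimated depth was 18.1 to 31.5 M fragments per library. At that depth the thinnest member value, Gcat in the 2-day library, rested on about 342 fragments, a counting error of 5.41%, and the best covered, Mat2a in ES 1, on about 40850 fragments, an error of 0.495%. ES cell markers summed to 2292 and 2302 FPKM in the ES libraries, 2400 in the 2-day library and 2836 in the 5-day library. Dppa5a weighed heavily on these sums, at 561 and 577 FPKM in ES 1 and ES 2, 805 in the 2-day library and 1136 in the 5-day library. By log2 difference from ES cells, 6 of the 10 ES cell markers were lower in the 2-day library and 4 in the 5-day library. Of 14 markers of differentiated derivatives 3 lay above both ES libraries in the 5-day library, and the highest there reached 1.95 FPKM. These markers thus do not bear out the label embryoid body. In the 2-day library 6 lay above both. The highest was Eomes, at 1.31 and 1.32 FPKM in ES cells and 3.72 in the 2-day library. Its log2 difference was 1.03 (limma adjusted p = 0.0285, and 0.0657 with a pseudocount of 0.1). Markers of fibroblast feeders summed to 51.0 and 50.4 FPKM in ES cells, 173 in the 2-day library and 75.5 in the 5-day library. Of those 16 markers 15 lay above both ES libraries in the 2-day library and 9 in the 5-day library, and none was at 0 in either. Lum was at 0 in ES 2. The 5-day library was mixed, with 10 of 15 tested markers higher and 5 lower by log2 difference. Dcn was at 0.6952 and 0.6635 FPKM in ES cells and 11.1 in the 5-day library, and S100a4 at 14.1, 12.6 and 8.64. Both were named after their values were seen. Whether these transcripts came from feeders was not tested. The 10 highest genes held 44.7% of the summed FPKM of the 2-day library and 9.8% to 17.4% of the other libraries. The part of fibroblast RNA and of this skew in the results below was not tested. In these bulk libraries fewer cells of a type and less RNA per cell cannot be told apart.

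In ES cells the members spanned a wide range of levels, from Mat2a, Tdh and Shmt1 among the most abundant transcripts of the cell to Psph and Gcat near its middle. Mat2a was at 290 and 295 FPKM in ES 1 and ES 2, and Tdh at 266 and 283. Both exceeded at least 98.2% of the tested genes in each ES library. Shmt1 followed at 162 and 179 FPKM, Psat1 at 98.8 and 103 and Shmt2 at 57.0 and 55.8. Gldc (37.4 and 39.7) and Phgdh (37.7 and 38.2) had overlapping ranges and cannot be ordered, and the same held for Gcat (10.39 and 10.41) and Psph (8.86 and 11.1). Mthfd2, at 32.1 and 32.8 FPKM, lay between those pairs, and the ranges of all other neighbours in this order did not overlap. Mat2a and Tdh were close, with the lower Mat2a value (290 FPKM) nearer to the higher Tdh value (283) than the Tdh values were to each other. Mat2a, Tdh and Shmt1 together made up 71.8% and 72.2% of the members' summed FPKM in ES 1 and ES 2, 73.1% in the 2-day library and 75.1% in the 5-day library.

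**Figure D1:**
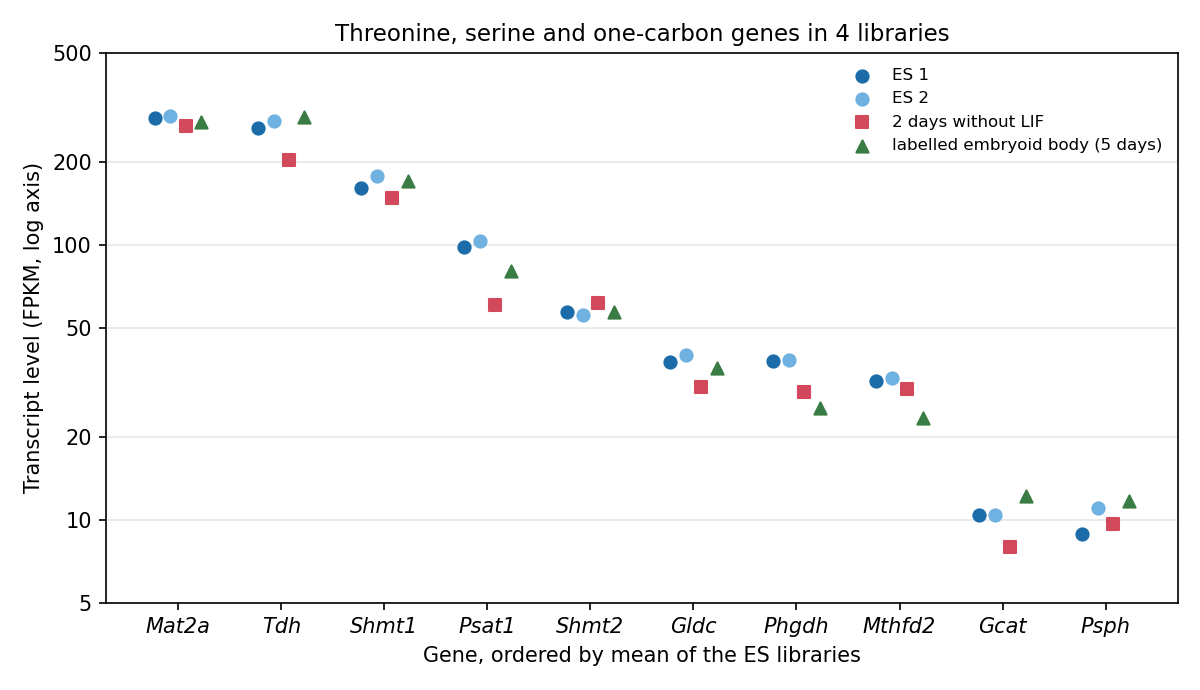
Level of each gene in FPKM (log axis) in the 4 libraries, with genes ordered by the mean of the ES libraries and 1 point per library. Mat2a and Tdh lie above 200 FPKM in all 4 libraries, Gcat and Psph lie between 7.94 and 12.2 FPKM, and the points of a gene stay within 2-fold of each other.

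The ES pair was close for these genes. ES 2 was the higher library for 9 of 10 members, by at most 1.10-fold apart from Psph, whose ES values differed 1.25-fold; counting error alone was 2.88% and 2.81% for the Psph values. Among all tested genes 2046 were at least 2-fold apart between ES 1 and ES 2, and none of the members was.

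The first comparison asked how these genes differed after 2 days without LIF. Psat1, Tdh, Gcat, Phgdh and Gldc had lower levels than in both ES libraries, by 21.1% to 40.1% of the ES mean, whereas Shmt2 was 9.5% higher. No member passed the test, which asked for a limma adjusted p under 0.05 and at least a 2-fold difference, a criterion met by 7.67% of all tested genes. At an unadjusted p under 0.05 limma picked 5 of the 10 members, against 37.2% of all tested genes, and all 5 were lower, against 13.1% of tested genes lower and 24.1% higher at that level. Adjusted p alone, with no fold, was under 0.05 for 0 members and 1572 of the 15676 tested genes, and a 2-fold distance to each ES library was reached by 0 members and 15.3% of tested genes. Fitted among protein-coding genes only, 4.55% of genes and 0 members passed the test, and 17.1% of genes and 2 members (Phgdh and Psat1) passed on adjusted p alone. Among strand-clear genes, defined as those with no gene on the opposite strand, which hold Gcat, Phgdh and Mthfd2, the shares were 3.04% with 0 members and 22.0% with 2 (Gcat and Phgdh). Fits among fewer genes use the same FPKM and give the same log2 differences. Their p-values differ because the moderated spread and the adjustment are taken over another set of genes. A lower p there is not a cleaner measurement of a member. In all, 8 of 10 members lay below both ES libraries (36.6% of tested genes did, and 39.7% of protein-coding genes), and 1 above both (48.4% and 47.7%). The members' median log2 difference was -0.26, beside 0.04 over all tested genes. These counts and medians describe the list and were not tested against other lists. Beside them stand the higher fibroblast markers of this library and its lower estimated depth of 18.1 M fragments.

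The serine synthesis arm held the lowest member. Psat1, the aminotransferase of the pathway, was at 98.8 and 103 FPKM in ES 1 and ES 2 and at 60.5 in the 2-day library. The derived library was thus well outside the ES pair, with a log2 difference of -0.73 (SE 0.05, 95% interval -0.96 to -0.50, limma adjusted p = 0.0572 and 0.028 among protein-coding genes only). Phgdh, the first enzyme of the arm, was at 37.7, 38.2 and 29.2 FPKM, a log2 difference of -0.37 (SE 0.02, limma adjusted p = 0.0583, 0.0424 among protein-coding genes and 0.0341 among strand-clear genes). Over the other fits run, the adjusted p ranged from 0.028 to 0.0933 for Psat1 and from 0.0341 to 0.117 for Phgdh, and neither gene reached a 2-fold difference in any. Psph, the phosphatase that releases serine, was at 9.66 FPKM, between its ES values, and its 95% interval of -0.98 to 0.91 allowed a near 2-fold difference either way. Its log2 difference of -0.03 went to -0.180 without ES 1 and to 0.114 without ES 2.

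Psph shares exon bases with a far more abundant gene. On mm10 it lies on chromosome 5, 129765558 to 129787449, minus strand, where exons of Cct6a overlap 10.4% of its exonic sequence. Cct6a is a chaperonin gene on the other strand, at 483 and 503 FPKM in ES cells, 570 in the 2-day library and 390 in the 5-day library. The labels do not state whether counting used strand, so the level of Psph is uncertain. Phgdh (chromosome 3, 98313170 to 98339990) and Psat1 (chromosome 19, 15904678 to 15947337), both on the minus strand, share no exon bases with a gene on the other strand.

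By log2 difference from ES cells the lowest members in a derived library were Psat1 (-0.73, 2 days), Phgdh (-0.55, 5 days) and Mthfd2 (-0.46, 5 days). Next was Tdh (-0.43, 2 days), for which no promoter was available. For Phgdh, Psat1 and Mthfd2 the 120 bases before the RefSeq start (build GRCm38.p6, the assembly called mm10) are shown. Each holds CCAAT, the pentamer bound by the factor NF-Y, which was chosen for the search after the data had been seen. Mat2a, at -0.11 and -0.06 after 2 and 5 days, holds CCAAT too, and a link between CCAAT and level was not tested. Capitals mark CCAAT or its reverse complement. They lie at chr3:98339970-98340089, chr19:15925060-15925179 (the more upstream of 2 RefSeq starts) and chr6:83317605-83317724, all on the minus strand and written 5′ to 3′ along the gene. Of these bases 21 for Phgdh and 2 for Mthfd2 lie in an exon of a longer GENCODE model, and the Psat1 stretch lies in an intron of one.
Phgdh: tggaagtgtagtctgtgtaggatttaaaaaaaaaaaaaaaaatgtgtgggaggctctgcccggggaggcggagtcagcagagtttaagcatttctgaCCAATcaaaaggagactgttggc
Psat1: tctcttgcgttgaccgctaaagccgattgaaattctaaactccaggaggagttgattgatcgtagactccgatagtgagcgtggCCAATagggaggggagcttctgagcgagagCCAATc
Mthfd2: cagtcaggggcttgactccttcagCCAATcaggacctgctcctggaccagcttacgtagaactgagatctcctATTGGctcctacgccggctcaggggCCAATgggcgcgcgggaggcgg

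Over the window of 250 bases before to 50 after the start, searched on both strands, CCAAT occurred in promoters of 7 members (Gldc, Mat2a, Mthfd2, Phgdh, Psat1, Psph and Shmt1), that is in 7 of 10 member promoters, against 37.4% of all 32851 promoters in the table. The table has promoters of 9 members, with 2 for Psat1, and Tdh is not among them. TGATGNAA, the core of the composite site bound by ATF4 (the factor that induces amino acid synthesis genes when amino acids are scarce), occurred in 0 of the 10 and in 3.97% of all. CACGTG, the E-box bound by MYC and MAX, occurred in 1 of 10, that of Gcat, and in 7.15% of all. A match describes letters and not a bound site, and no match says only that these letters are not in this window.

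In the threonine arm, both enzymes were lower in the 2-day library. Tdh was at 266 and 283 FPKM in the ES libraries and at 203 in the 2-day library, a log2 difference of -0.43 (SE 0.07, 95% interval -0.76 to -0.11, limma adjusted p = 0.107). The 2-day library was the lowest of the 4. Gcat was at 10.39, 10.41 and 7.94 FPKM in the same order, a log2 difference of -0.35 (SE 0.04, limma adjusted p = 0.0873). Over the other fits the limma adjusted p of Gcat ranged from 0.0473 (strand-clear genes) to 0.139, with 0.0607 among protein-coding genes. The 2-day library again gave the lowest level, and it has no replicate. On mm10, Tdh (chromosome 14, 63492347 to 63509092, minus strand) has 2.52% of its exon length opposite an antisense transcript at no more than 0.496 FPKM. Gcat (chromosome 15, 79030874 to 79038353, plus strand) has no gene on the other strand, but a second annotated identifier of the same name overlaps it on its own strand and is not used here.

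Glycine cleavage and the hydroxymethyltransferases did not share 1 direction by point estimate, though the intervals of Shmt1 and Shmt2 included 0. Gldc was at 37.4 and 39.7 FPKM in ES cells and at 30.4 in the 2-day library (log2 difference -0.33, limma adjusted p = 0.117). Shmt1, the cytosolic enzyme, was at 162, 179 and 148 FPKM (-0.20, adjusted p = 0.303), with a 95% interval of -0.66 to 0.27 set by the gap between the ES libraries, and a log2 difference of -0.126 without ES 2. Shmt2, its mitochondrial counterpart, was the 1 member above both ES libraries, at 57.0, 55.8 and 61.7 FPKM (0.13, adjusted p = 0.136). Its 95% interval was -0.002 to 0.259, and with median-of-ratios scaling its log2 difference was 0.078. Mthfd2 was at 32.1, 32.8 and 29.9 FPKM (-0.12, adjusted p = 0.161), and Mat2a at 290, 295 and 271 FPKM (-0.11, adjusted p = 0.201); both lay just below the ES pair, with intervals that included 0. All these p-values are from limma over 15676 genes. On mm10 Gldc lies on chromosome 19, 30098447 to 30175429, Shmt1 on chromosome 11, 60788104 to 60811718, Shmt2 on chromosome 10, 127517123 to 127522444, and Mat2a on chromosome 6, 72432799 to 72439558, all on the minus strand. Exons of Particl, a transcript at no more than 2.79 FPKM, lie opposite 11.3% of the exonic sequence of Mat2a, and exons of Smcr8, at 21 to 34.6 FPKM, opposite 4.74% of that of Shmt1.

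**Figure D2:**
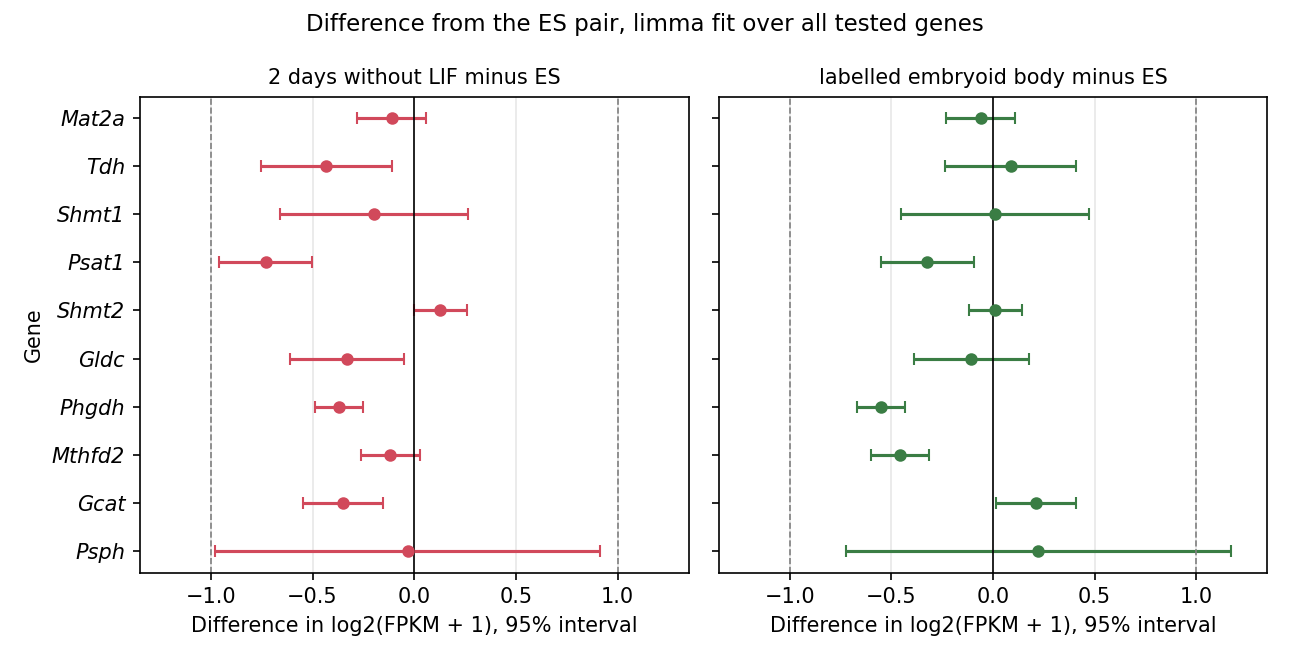
Difference in log2(FPKM + 1) from the mean of the ES libraries for the 2-day library (left) and the 5-day library (right), with 95% intervals from limma; dashed lines mark a 2-fold difference. In the 2-day library Psat1 lies lowest (-0.73) and Shmt2 highest (0.13); in the 5-day library Phgdh lies lowest (-0.55), and no point reaches a dashed line.

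The 5-day library was then compared with the same ES pair. Phgdh, Mthfd2 and Psat1 were 32.7%, 27.9% and 20.3% below the ES mean, while Tdh, Gcat and Psph lay 6.2% to 17.7% above it. No member passed the limma test, which 0.396% of all tested genes passed. At an unadjusted p under 0.05 there were 4 members, against 27.7% of tested genes, 3 lower (15.2% of tested genes were lower at that level) and 1 higher (12.5%). Of the 10 members 5 lay below both ES libraries and 3 above both, against 42.9% and 37.6% of tested genes and 48.4% and 37.3% of protein-coding genes, so the members' shares were near the background. A 2-fold distance to each ES library was reached by 0 members and 8.01% of tested genes. Among protein-coding genes 0.558% passed, with 0 members. Among strand-clear genes 2.31% passed, with 0 members, and 14.3% passed on adjusted p alone, with 2 members (Phgdh and Mthfd2). The members' median log2 difference was -0.03, beside -0.01 over all tested genes.

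Phgdh was at 37.7 and 38.2 FPKM in the ES libraries and at 25.6 in the 5-day library. This was its lowest level in the 4 libraries, with a log2 difference of -0.55 (SE 0.02, 95% interval -0.67 to -0.43, limma adjusted p = 0.139 over all genes and 0.0317 among strand-clear genes). Mthfd2, on chromosome 6, 83305691 to 83325908, minus strand, was at 32.1, 32.8 and 23.4 FPKM. It too had its lowest level in this library (-0.46, SE 0.03, limma adjusted p = 0.139, and 0.0387 among strand-clear genes). Over the other fits the adjusted p ranged from 0.0317 to 0.184 for Phgdh and from 0.0387 to 0.188 for Mthfd2. Psat1 was at 80.6 FPKM, below the ES pair but above its level in the 2-day library (-0.32, limma adjusted p = 0.152).

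The threonine enzymes were not lower in this library. Tdh was at 292 FPKM, above both ES values of 266 and 283 by less than the gap between them (log2 difference 0.09, 95% interval -0.24 to 0.41, limma adjusted p = 0.502). Without ES 1 the log2 difference of Tdh was 0.041, and without ES 2 it was 0.133. Gcat, at 12.2 FPKM, lay above its ES values of 10.39 and 10.41 (0.21, SE 0.04, limma adjusted p = 0.172). Shmt1 at 171 and Shmt2 at 56.8 FPKM lay inside the range of the ES pair, with intervals of -0.45 to 0.47 and -0.12 to 0.14, and with the sum of each library but its 10 highest genes made equal their log2 differences of 0.01 each turned to -0.01. Without ES 1 they were -0.061 for Shmt1 and 0.025 for Shmt2, and without ES 2 they were 0.080 and -0.003, so neither has a settled direction. Gldc was at 35.7 FPKM (-0.11, adjusted p = 0.39), Mat2a at 280.0 (-0.06, adjusted p = 0.403) and Psph at 11.7 (0.22, adjusted p = 0.55), all by limma. The log2 difference of Psph was 0.077 without ES 1 and 0.370 without ES 2, and that of Gldc was -0.064 without ES 2.

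The libraries after 2 and 5 days were also set against each other, with the spread taken from the ES pair because each group has 1 library. Gcat was 53.7% and Tdh 43.5% higher in the 5-day library than in the 2-day library, and Psat1 33.2% higher, while Mthfd2 was 21.6% and Phgdh 12.3% lower. No member passed the limma test (7.88% of tested genes did), and 5 were at an unadjusted p under 0.05 (36.8%), 3 higher (11.9%) and 2 lower (24.9%). On adjusted p alone 1569 of the 15676 tested genes and 0 members passed, and 22.4% of tested genes and 0 members differed at least 2-fold. Among protein-coding genes 5.48% passed with 0 members, and 16.5% on adjusted p alone with 1 (Gcat). Among strand-clear genes 4.44% passed with 0 members, and 21.6% on adjusted p alone with 2 (Gcat and Mthfd2). Of the members 7 were higher in the 5-day library, against 42.1% of tested genes and 41.7% of protein-coding genes. For Gcat the log2 difference was 0.56 (SE 0.05, limma adjusted p = 0.0694, 0.0437 among protein-coding and 0.0315 among strand-clear genes), and for Tdh it was 0.52 (SE 0.08, limma adjusted p = 0.104). Mthfd2 gave -0.34 (limma adjusted p = 0.0798, 0.0579 among protein-coding and 0.0472 among strand-clear genes). The comparisons with ES cells share the same control libraries, so the members' differences in both are not independent of each other.

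Ratios of members within a library do not depend on how libraries are scaled. Tdh exceeded Gcat 25.6-fold and 27.2-fold in ES 1 and ES 2, 25.6-fold in the 2-day library and 23.9-fold in the 5-day library, so the 5-day library lay below the ES pair by about as much as the pair differed. The ratio of Psat1 to Phgdh was 2.62 and 2.71 in the ES libraries. It was 2.08 in the 2-day library and 3.15 in the 5-day library, outside the ES pair on opposite sides. Shmt1 exceeded Shmt2 by 2.84-fold and 3.20-fold in ES cells, 2.40-fold in the 2-day library and 3.01-fold in the 5-day library, so the cytosolic transcript was the more abundant in each.

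Other ratios showed where a library left the ES pair. Gldc to Shmt2 was 0.657 and 0.71 in ES cells, 0.492 in the 2-day library and 0.629 in the 5-day library, which was closer to the pair. Mthfd2 to Shmt2, both mitochondrial folate enzymes, was 0.564 and 0.588 in ES cells, and 0.484 and 0.412 in the derived libraries in that order. Tdh was below Mat2a in ES cells (ratios 0.918 and 0.961) and in the 2-day library (0.751), and above it in the 5-day library (1.04), where it was the highest member.

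**Figure D3:**
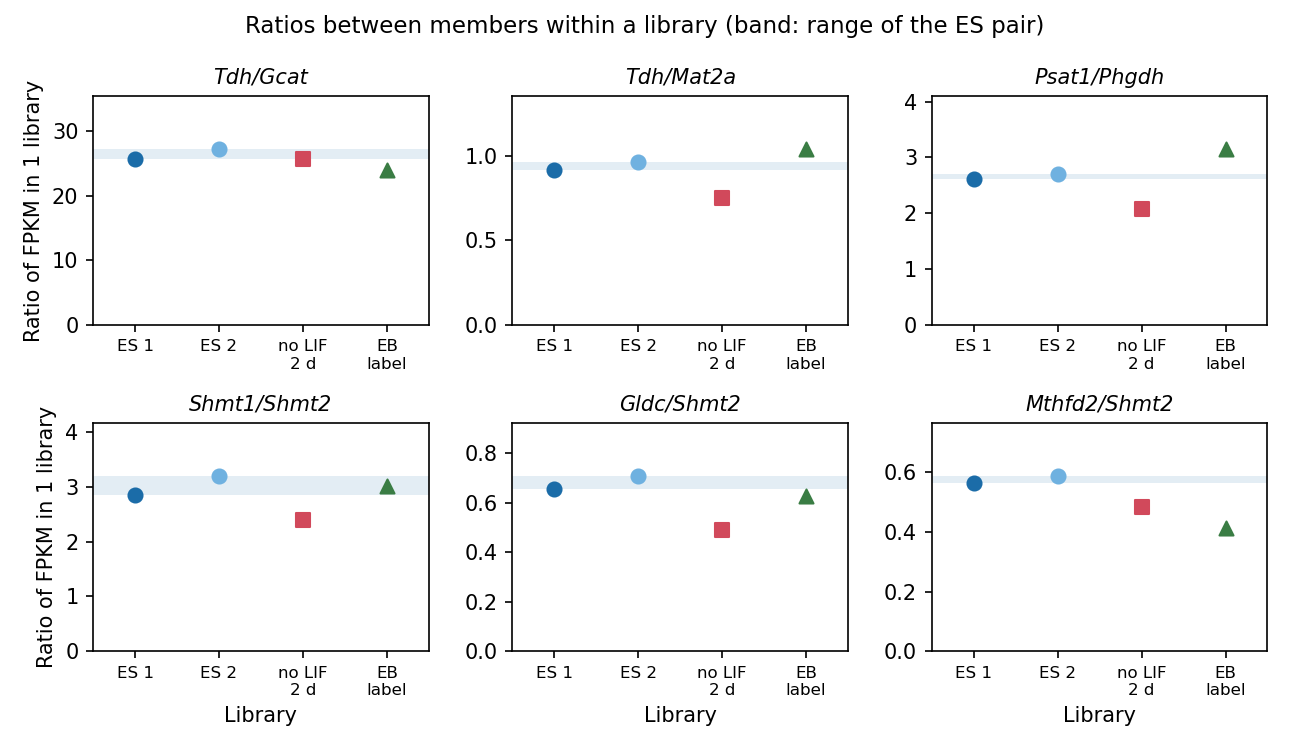
Ratio of the FPKM of 2 members within each library, for 6 pairs, with 1 point per library on axes that start at 0 and a band for the range of the ES pair. Psat1/Phgdh lies at 2.08 in the 2-day library and 3.15 in the 5-day library, on opposite sides of the band, and Mthfd2/Shmt2 lies below the band in both, at 0.484 and 0.412.

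The lists of linked genes below hold no member and were read in the same way. Their counts stand against the shares of all tested genes: 7.67% called in the 2-day library and 0.396% in the 5-day library, and at an unadjusted p under 0.05 by limma 13.1% lower and 24.1% higher in the 2-day library, and 15.2% lower and 12.5% higher in the 5-day library. The median log2 difference of all tested genes was 0.04 and -0.01 in that order. No list was tested against these shares.

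Among genes that use threonine or glycine, 12 of 14 were tested. Srr, the serine racemase, rose in the 2-day library from 0.974 and 0.930 FPKM to 23.5 (limma adjusted p = 0.00881) and was at 1.12 in the 5-day library. Exons of other genes lie opposite 30.0% of its exon length, so its level is uncertain. Of the genes on the other strand, Tsr1 was at 109.6 and 111.6 FPKM in ES cells, 98.91 in the 2-day library and 97.95 in the 5-day library. Smg6 was at 28.9, 30.6, 38.4 and 30.6 FPKM in that order. The part of this overlap in the level of Srr was not tested. Srr was the 1 gene of 12 called in the 2-day library, beside 7.67% of all tested genes. In the 5-day library 0 were called, and at an unadjusted p under 0.05 there were 5 lower, beside 15.2% of tested genes, and 0 higher, beside 12.5%. Dld and Pccb had the largest differences there. Dld, a subunit shared by glycine cleavage and other dehydrogenase complexes, was at 46.7 and 47.8 FPKM in ES cells, 53.7 in the 2-day library and 37.1 in the 5-day library. Pccb, a subunit of propionyl-CoA carboxylase, was at 9.92, 9.85, 6.76 and 7.54 FPKM in that order.

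Of 17 folate cycle genes limma called 1 in the 2-day library, a share near the 7.67% of all tested genes. It called 0 in the 5-day library, where 5 were lower (15.2% of tested genes) and 1 higher (12.5%) at an unadjusted p under 0.05. The called gene, Aldh1l2, a mitochondrial formyl-folate dehydrogenase, rose from 0.359 and 0.438 to 2.08 FPKM (limma adjusted p = 0.0442), with 14.1% of its exons opposite exons of D10Wsu102e. The call of Aldh1l2 was lost with a pseudocount of 0.1 (limma adjusted p = 0.07175) and without the trend (limma adjusted p = 0.05077), and over all fits the adjusted p went as low as 0.02321. Folr1, a folate receptor, was the lowest gene of the list by difference, at 14.2 and 18.0 FPKM in ES cells, 6.34 in the 2-day library and 4.08 in the 5-day library. Both derived libraries were at least 2-fold below both ES libraries, with log2 differences of -1.21 and -1.74 that did not pass the test (limma adjusted p = 0.12 and 0.145). For the 2-day library the adjusted p of Folr1 was 0.049 among protein-coding genes. Ggh, which trims the glutamate tail of folates, was at 2.70, 3.02, 3.18 and 5.88 FPKM. The median of the list was 0.03 in the 2-day library and -0.10 in the 5-day library, beside 0.04 and -0.01 over all tested genes.

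Of 14 tested genes of the methionine and SAM cycle limma called 0 in either comparison, with 5 higher and 2 lower at an unadjusted p under 0.05 in the 2-day library (24.1% and 13.1% of tested genes) and 2 higher and 3 lower in the 5-day library (12.5% and 15.2%). Ahcyl2, a relative of the enzyme that clears S-adenosylhomocysteine, was at 11.05 FPKM in both ES libraries, 20.02 in the 2-day library and 19.53 in the 5-day library (log2 differences 0.80 and 0.77, limma adjusted p = 0.0347 and 0.139). The first passed on p and not on fold. Cth, the last enzyme of transsulfuration, was at 9.40 and 9.46 FPKM in ES cells, 15.4 in the 2-day library and 11.1 in the 5-day library. Its log2 difference in the 2-day library was 0.66 (limma adjusted p = 0.0527, 0.0326 among protein-coding and 0.0241 among strand-clear genes), short of 2-fold. Ahcy, at 61.0 and 75.9 FPKM in ES cells, was at 55.3 and 51.7 in the derived libraries.

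Purine synthesis is a main use of one-carbon units. By log2 difference, all of its 10 tested genes lay below the mean of the ES pair in the 2-day library and 9 of 10 in the 5-day library. The shares of all tested genes were 45.1% and 50.9% in that order. Some of these differences were small: in the 2-day library Ppat, at 73.8 FPKM, lay between its ES values of 72.8 and 77.4, and Adss had a log2 difference of -0.02. Limma called 0 in either library. At an unadjusted p under 0.05 there were 5 lower in the 2-day library and 6 in the 5-day library, beside 13.1% and 15.2% of tested genes, and 0 higher in either, beside 24.1% and 12.5%. The list's median was -0.16 and -0.30, beside 0.04 and -0.01 over all tested genes. Prps2, which makes the ribose donor of the pathway, was at 33.45 and 33.44 FPKM in the ES libraries, 21.1 in the 2-day library and 19.2 in the 5-day library (-0.64 and -0.77, limma adjusted p = 0.0323 and 0.135). Prps1, its paralogue, was at 82.6, 79.6, 60.7 and 61.4 FPKM. Adsl was at 87.1, 93.2, 81.7 and 66.3 FPKM.

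Of 12 amino acid transporters limma called 0 in either comparison, with 1 higher and 3 lower at an unadjusted p under 0.05 in the 2-day library (24.1% and 13.1% of tested genes) and 2 higher and 3 lower in the 5-day library (12.5% and 15.2%). Sfxn1, which carries serine into the mitochondrion, was at 37.1 and 37.6 FPKM in ES cells, 32.6 in the 2-day library and 23.6 in the 5-day library (-0.64, limma adjusted p = 0.139, 0.0602 among protein-coding and 0.0289 among strand-clear genes). Slc7a11, the cystine transporter, was at 0.820, 0.885, 1.85 and 2.92 FPKM. Sfxn3 was at 2.20, 3.18, 4.72 and 2.55 FPKM.

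Of 19 tested genes of the ATF4 and amino acid response, limma called 1 in the 2-day library, beside 7.67% of all tested genes. It called 0 in the 5-day library, beside 0.396%. Atf3, a stress-induced factor of the ATF family, fell from 4.50 and 4.27 to 1.39 FPKM in the 2-day library (log2 difference -1.17, limma adjusted p = 0.0486). The call of Atf3 was lost with a pseudocount of 0.1 (limma adjusted p = 0.07093) and with median-of-ratios scaling (limma adjusted p = 0.05108), and over all fits the adjusted p went as low as 0.02368. At an unadjusted p under 0.05, 9 were lower and 3 higher in the 2-day library, beside 13.1% and 24.1% of tested genes, and 3 lower and 3 higher in the 5-day library, beside 15.2% and 12.5%. The 3 higher in the 2-day library were Asns, Atf5 and Pycr1, with log2 differences of 0.49, 0.45 and 0.35, named here after their values were seen. Asns was at 42.7 and 41.8 FPKM in ES cells, 59.6 in the 2-day library and 52.3 in the 5-day library. For the 2-day library its limma adjusted p was 0.0513, 0.0332 among protein-coding and 0.0262 among strand-clear genes, short of 2-fold. The list's median was -0.33 and -0.01, beside 0.04 and -0.01 over all tested genes. Chac1, which degrades glutathione and is induced by ATF4, was at 3.23, 4.17, 1.04 and 1.68 FPKM (limma adjusted p = 0.111 in the 2-day library, and 0.0309 among strand-clear genes, where it passed). Atf4 itself was at 143 and 146 FPKM in ES cells, 97.2 in the 2-day library and 144 in the 5-day library (-0.57 in the 2-day library, limma adjusted p = 0.0458, short of 2-fold). It was named after its values were seen. Nupr1 was at 1.14, 1.74, 0.926 and 5.79 FPKM.

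**Figure D4:**
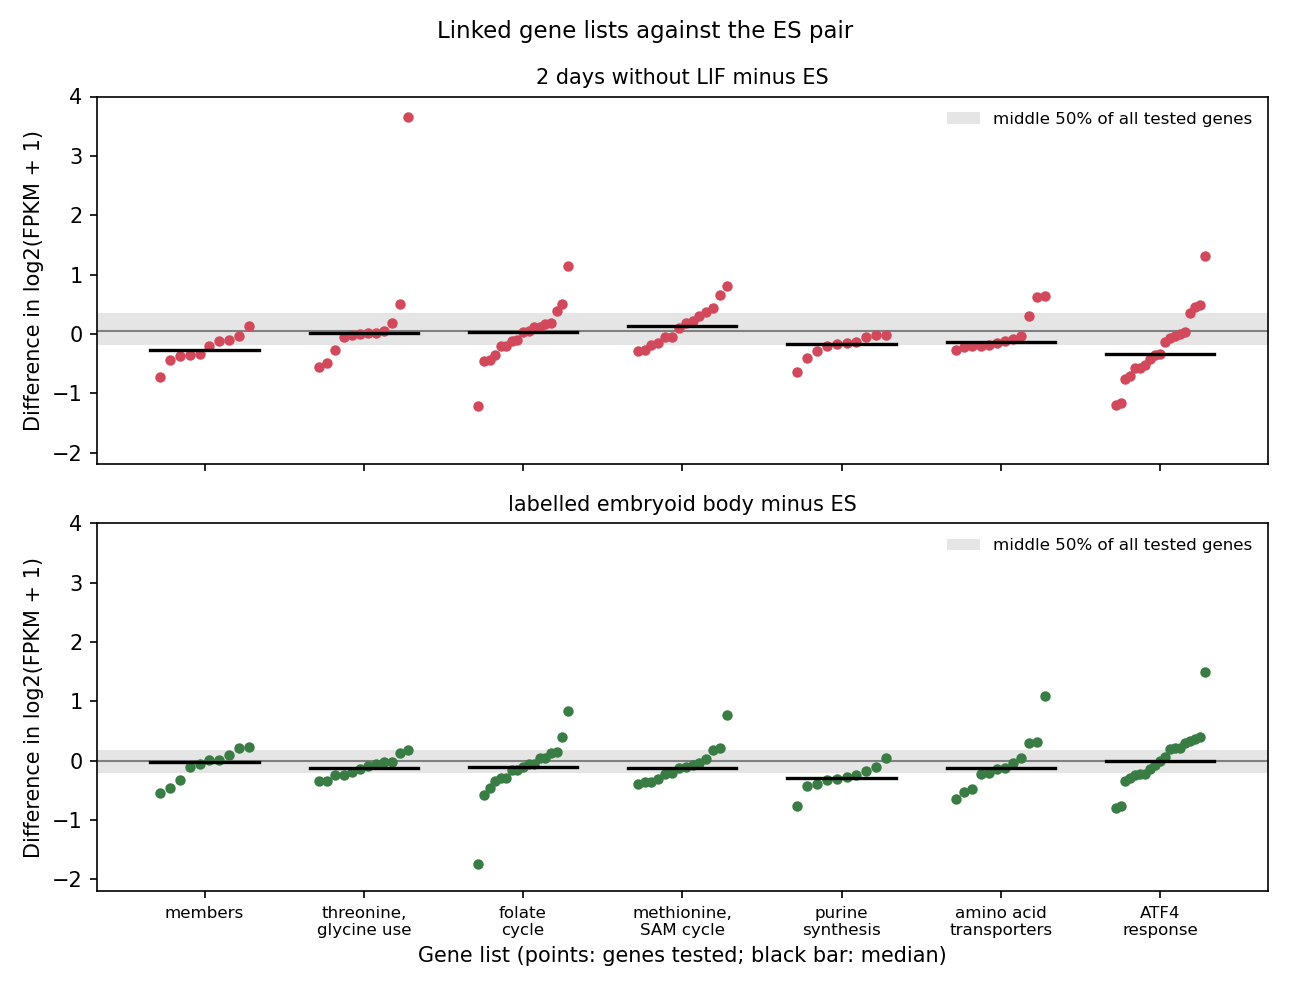
Difference in log2(FPKM + 1) from the ES mean for each tested gene of the members and of 6 linked lists, in the 2-day library (top) and in the 5-day library (bottom); black bars are medians and the grey band holds the middle 50% of all tested genes. The medians of the members (-0.26) and of the ATF4 list (-0.33) lie below the band in the 2-day library, and that of purine synthesis (-0.30) lies below it in the 5-day library.

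Between the derived libraries limma called 1 of these linked genes, in a comparison where 7.88% of all tested genes were called. It called 0 of 17 folate cycle, 14 methionine and SAM cycle, 10 purine synthesis, 12 transporter and 19 ATF4 response genes. The called gene was Srr, 1 of 12 tested genes of its list, which was lower in the 5-day library (log2 difference -3.53, limma adjusted p = 0.0112). Aldh1l2 was also lower there (-1.10, limma adjusted p = 0.0525) and passed without the filter (limma adjusted p = 0.04672) and among protein-coding genes (limma adjusted p = 0.02912), while over the other fits its adjusted p went up to 0.08134. Cbs, the first enzyme of transsulfuration, was at 12.1 and 12.8 FPKM in ES cells, 17.3 in the 2-day library and 10.6 in the 5-day library. Stc2, a secreted glycoprotein induced by stress, was at 4.82, 3.99, 2.19 and 5.94 FPKM in that order. Mtap, which salvages methionine from methylthioadenosine, was at 32.8, 33.5, 43.1 and 30.2 FPKM. Adss, which leads from IMP towards AMP, was at 70.0, 69.8, 68.7 and 56.1 FPKM. Slc7a1, a carrier of cationic amino acids, was at 15.2, 16.9, 20.01 and 13.6 FPKM.

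The genes whose profile over the 4 libraries was nearest to that of Tdh, among 8578 protein-coding genes at a mean of 5 FPKM or more, were the ribosomal protein genes Rps25 and Rpl18 and the myosin gene Myo10. Their distances, taken between log2(FPKM + 1) profiles centred on their means, were 0.03, 0.05 and 0.04. Rps25 was at 1089, 1167, 848 and 1179 FPKM in ES 1, ES 2, the 2-day library and the 5-day library. Nearest to Psat1 were Ifrd2, Map3k1 and Tmem248, at distances of 0.04, 0.06 and 0.07, with Ifrd2 at 41.2, 42.9, 25.7 and 33.0 FPKM. Within a distance of 0.1 there were 62 genes for Tdh and 15 for Psat1, so 4 libraries do not single out a partner.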

How the data were processed

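RNA-seq values of 4 libraries were used as the authors deposited them, in FPKM per gene. Tools named per the submitters' processing notes are Trimmomatic 0.36, STAR and Cufflinks, with build mm10. Options, annotation and strand handling: not given in the sources used here. Gene names, positions and overlaps came from GENCODE mouse release 21 (47219 of 47633 identifiers matched), and promoters from RefSeq on GRCm38.p6. The members and lists were chosen with earlier results of these data known.

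The limma fit (version 3.58.1, R 4.3.3) used log2(FPKM + 1) of genes reaching 1 FPKM in any library, a trend on mean expression and all 4 libraries in 1 model. Its 1 residual degree of freedom is the ES pair, and each derived group, a lone sample, is assumed to vary like it. The pseudocount understates differences of low genes. Called genes had a Benjamini-Hochberg adjusted p under 0.05 over all genes fitted and a log2 difference of at least 1. Strand-clear genes (6808) are protein-coding or long non-coding, have at least 1000 nt of exons and lie outside gene bodies on the opposite strand; 3 members are among them. Depth was estimated from what 1 fragment is worth in long single-transcript genes (3000 nt or more), so fragments and counting errors are approximate and cover counting error only. From each linked list the text names called genes (at most 4 per comparison) or, with none called, the 2 with the largest differences. Marker lists are given by their sums, counts and a few named genes, short of that rule. The CCAAT box, the GC box and the TATA box were added to the motif search after the data had been seen. Python 3.11.15 with numpy 2.4.6, pandas 2.3.3 and matplotlib 3.10.9 made the tables and figures. The fit was also run on simulated data in which all 4 libraries had the spread of the ES pair. That run cannot test the assumption that a lone library varies like the pair. A protein comparison of Shmt1 and Shmt2 that had been planned was not made.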

Additional observations from a re-analysis of the deposited data

How the results depend on the processing

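No paired analysis was possible because replicate numbers exist for the ES libraries only. The number of members called stayed at 0 in the 3 comparisons under each of 8 alternative fits (pseudocount of 0.1, no filter, a filter at 5 FPKM, median-of-ratios scaling, equal sums without the 10 highest genes, no trend, protein-coding genes only, strand-clear genes only, the last with 3 members), and 0 members were at least 2-fold from ES cells with either ES library left out. Of 219 member values from the alternative fits 217 kept their direction and none gained or lost a call; with equal sums without the 10 highest genes, Shmt1 and Shmt2 in the 5-day library went to -0.009 and -0.007. Of 40 member values with an ES library left out 37 kept their direction; Psph in the 2-day library turned to 0.114 without ES 2, and in the 5-day library Shmt1 turned to -0.061 without ES 1 and Shmt2 to -0.003 without ES 2. Among other named genes, the difference between the derived libraries turned to 0.037 for Ahcyl2 with median-of-ratios scaling and to -0.020 for Prps1 with equal sums. Without the fold threshold, members at adjusted p under 0.05 by limma numbered 0 to 2 per comparison and fit. Calls over all genes moved more. In the 2-day library there were 1203, and 395 with a filter at 5 FPKM, 562 among protein-coding and 207 among strand-clear genes. In the 5-day library there were 62, and 131 with a pseudocount of 0.1, 138 without a filter, 41 at 5 FPKM, 0 without a trend (4504 at unadjusted p under 0.05 by limma) and 157 among strand-clear genes. Between the derived libraries there were 1236, and 444 with a filter at 5 FPKM, 677 among protein-coding and 302 among strand-clear genes. The spread rests on 1 pair of libraries and neither derived group has a replicate.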

Other observations

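The 10 member promoters in the RefSeq table ranged in G and C content from 42.7% (Shmt2) and 47.7% (Phgdh), both below the median of all promoters, to 67.0% (Mat2a). Over the window of 250 bases before to 50 after the start their median G and C content was 60.5%, against 52.7% for all 32851 promoters, and the median number of CG dinucleotides was 18.5 against 7. GGGCGG, the GC box bound by SP1, occurred on either strand in 6 of 10 (Gcat, Gldc, Mat2a, Psat1, Psph and Shmt1) and in 35.7% of all. TATAAA occurred in 2 of 10 (Mat2a and Phgdh) and in 13.6% of all, and in Mat2a it began 32 bases before the start. Shmt2 had neither of these, nor CCAAT. These motifs were searched after the values were seen and are given as a description, with no test.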
